A study of Homo sapiens with 6 samples.

Results

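Interferon-stimulated genes and genes for sensing foreign or misplaced nucleic acid were followed in SW620 cells, a line established from a human colon cancer, as a set of 39 listed symbols. A symbol was matched to the gene name in the deposited count table, and 38 of the 39 were found among 60835 unique gene names. The symbol not found was DDX58, whose row the table carries under the current symbol RIGI (matched through the RefSeq synonym); RIGI is described beside the members and is not counted with them. The groups were 3 libraries of SW620 cells carrying a control vector (shControl, genotype label WT) and 3 libraries of SW620 cells with stable knockdown of DNM1, the gene for the membrane-fission GTPase dynamin 1 (shDNM1). All cells were grown in DMEM with serum, and no label names an added interferon, nucleic acid or infection. Both groups stem from 1 cell line, and no label tells separate cultures from repeat libraries, so p-values measure only the spread between these libraries. All shControl libraries belong to batch_A and all shDNM1 libraries to batch_B, so an effect of batch and one of the vector cannot be told apart here.

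As background, cells detect viral RNA with cytosolic helicases such as RIG-I and MDA5 and detect DNA with the synthase cGAS, and these sensors switch on interferon genes through adaptors and IRF transcription factors. Secreted interferon binds its receptors, JAK kinases phosphorylate STAT proteins, and a complex that holds STAT2 and IRF9 binds the interferon-stimulated response element (ISRE) in target promoters, whereas STAT dimers bind the gamma-activated site (GAS). Many target genes have a low basal level without interferon.

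Library totals ran from 12844534 to 13537519 counts. DNM1, the gene the vector is directed against, had 127, 127 and 133 CPM (counts per 1000000, scaled by TMM) in shControl replicates 1 to 3 and 126, 97.8 and 125.5 CPM in shDNM1 replicates 1 to 3. The groups did not overlap, but only shDNM1 replicate 2 was clearly below the controls. The log2 fold change was -0.15 (SE 0.083, adjusted p = 0.189), and an exact permutation test (two-sided) gave p = 0.1, its lowest possible value with 3 libraries a group. Without shDNM1 replicate 1 the DNM1 difference passed, at -0.20 (adjusted p = 0.0399), and without the other libraries it did not. The name shDNM1 therefore stands for the label of a library, and each direction below is between the labelled sets. Of 12 colon epithelial markers 10 were tested, 5 higher and 2 lower (70.0% with an adjusted p under 0.05, beside 31.9% of all tested genes). The summed level of the 12 was 8598 to 9381 CPM in shControl and 9939 to 11250 CPM in shDNM1. Higher were CDX2, an intestinal transcription factor (2.47-fold, adjusted p = 1.66e-06), KRT8, KRT18, KRT19 and CDH1, and lower were LGR5, a stem cell receptor (52.4% of control, adjusted p = 5.31e-06), and EPCAM. KRT8 stood at 5776 ± 264.5 and 6939 ± 389.3 CPM (SD, n = 3) in the shControl and shDNM1 sets and EPCAM at 420 ± 11.8 and 372 ± 9.45 CPM, whereas CDX1 had 0 counts in every library and KRT20 at most 18. The summed level of 19 leukocyte, stromal and endothelial markers was 59.7 to 68.2 CPM in shControl and 51.8 to 61.0 CPM in shDNM1. Of the 19, 7 were tested, 3 higher and 2 lower (71.4%, beside the same 31.9% of all tested genes). CD4 had 24.0 ± 1.84 and 11.3 ± 1.88 CPM (adjusted p = 4.37e-06) and LYZ was at 45.0% of control, whereas CSF1R was 3.51-fold, PDGFRB 2.66-fold and VWF 1.41-fold higher. PECAM1 and COL1A1 were present at 13.2 and 11.1 CPM in shControl and were not called. CD3E, MS4A1 and CLEC4C had 0 counts in every library and the pan-leukocyte marker PTPRC had 2 counts in all. The part of these marker differences in the results below was not tested.

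Most tested members did not pass the test between the groups, and the few that did moved in both directions. Of the 38 members, 34 passed the filter on low counts; IFI44, IFI44L, IFITM1 and CGAS did not. In the test over all 16744 genes, 6 of the 34 (17.6%) had an adjusted p under 0.05, where 31.9% of all tested genes did. Higher in the libraries labelled shDNM1 were ISG20, IRF7, ISG15 and PARP14 (15.6% of all tested genes were called higher), and lower were BST2 and STAT2 (16.2% of all tested genes were called lower). With upper-quartile scaling, or with library size alone, the split was 3 higher and 3 lower, because PARP14 no longer passed and OAS2 did. The values of the groups did not overlap for 12 of the 34 members, against 44.3% of all tested genes. The median log2 fold change of the 34 members was 0.06, beside -0.01 over all tested genes, and the median absolute value was 0.15 beside 0.24. The share called depends on abundance, so members were also split at an average log2 CPM of 4, a limit chosen after the values were seen. Above it 4 of 16 members were called, beside 42.4% of 8840 genes, and below it 2 of 18, beside 20.1% of 7904 genes. Of the 28 tested members that were not called, 10 had a 95% interval that lay within a 1.25-fold difference in either direction, 17 within 1.5-fold and 25 within 2-fold.

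**Figure D1:**
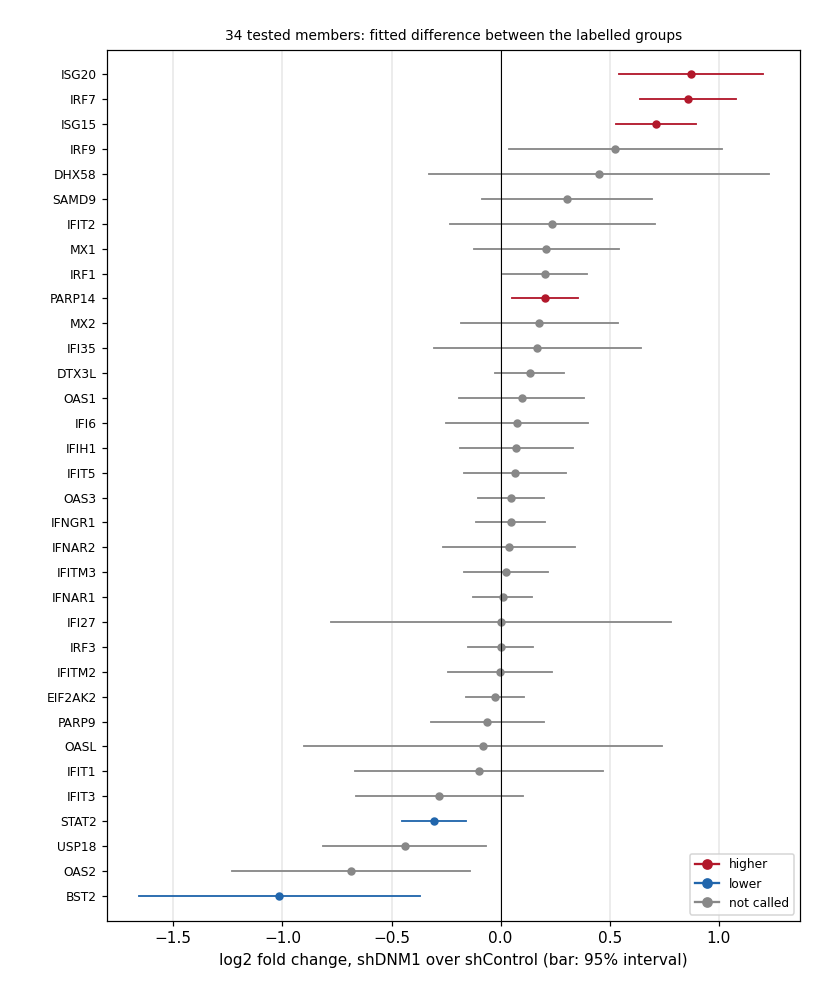
Fitted log2 fold changes of the 34 tested members, shDNM1 over shControl, with 95% intervals as bars; red and blue mark members with an adjusted p under 0.05 that were higher or lower, grey the others. ISG20, IRF7 and ISG15 lie between 0.71 and 0.87, BST2 lies at -1.01, and 26 of the 34 members lie within a 1.25-fold difference.

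Promoter windows of the members were searched for the cores of the ISRE and the GAS. RefSeq windows on GRCh38.p14, of 300 bases from 250 bases before to 50 after an annotated transcript start, were found for 27 of the 38 members; IFIT2, IFITM2, IFNAR2, IRF3, IRF7, MX2, CGAS, DHX58, USP18, OASL and OAS2 had no entry. Printed are the windows of the called members with the largest rises (ISG20, ISG15) and the largest fall (BST2) among those with a match, and that of DTX3L, which shares its start region with PARP9. They are given in lower case, 5′ to 3′ on the strand of the gene, with the ISRE core GAAANNGAAA in capitals (adjacent cores run together).
ISG20 (chr15:88638766-88639065, plus strand): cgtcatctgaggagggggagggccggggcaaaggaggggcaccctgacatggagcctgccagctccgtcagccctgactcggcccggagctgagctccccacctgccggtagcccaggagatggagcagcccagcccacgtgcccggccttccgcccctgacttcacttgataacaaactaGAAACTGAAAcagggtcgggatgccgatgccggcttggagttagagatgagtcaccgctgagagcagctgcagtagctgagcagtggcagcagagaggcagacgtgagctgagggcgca
ISG15 (chr1:1013247-1013546, plus strand): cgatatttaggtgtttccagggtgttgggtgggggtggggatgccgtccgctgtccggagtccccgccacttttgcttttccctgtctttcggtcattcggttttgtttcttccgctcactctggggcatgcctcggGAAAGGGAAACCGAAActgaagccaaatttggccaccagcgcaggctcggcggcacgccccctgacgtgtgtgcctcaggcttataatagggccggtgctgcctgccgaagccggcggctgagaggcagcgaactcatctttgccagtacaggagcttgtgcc
BST2 (chr19:17405581-17405880, minus strand): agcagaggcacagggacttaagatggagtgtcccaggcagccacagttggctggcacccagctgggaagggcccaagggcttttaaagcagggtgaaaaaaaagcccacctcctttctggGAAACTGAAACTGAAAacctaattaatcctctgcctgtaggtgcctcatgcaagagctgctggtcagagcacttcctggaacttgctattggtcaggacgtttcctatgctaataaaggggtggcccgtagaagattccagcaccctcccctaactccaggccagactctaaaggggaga
DTX3L (chr3:122564088-122564387, plus strand): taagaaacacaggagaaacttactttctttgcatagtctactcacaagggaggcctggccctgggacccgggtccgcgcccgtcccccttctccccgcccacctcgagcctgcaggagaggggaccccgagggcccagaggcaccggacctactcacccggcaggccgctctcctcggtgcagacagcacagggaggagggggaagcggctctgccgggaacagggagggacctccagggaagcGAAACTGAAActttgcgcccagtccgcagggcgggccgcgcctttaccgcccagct

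Searched on both strands, the ISRE core was present in windows of 20 of the 27 members (74.1%), beside 4.38% of 27305 genes in the same table and 3.57% of all 35116 windows. The GAS core TTCNNNGAA, which reads the same on both strands, was present for 9 of the 27 (33.3%), beside 9.38% of genes and 7.66% of all windows. Members were listed largely as interferon-stimulated genes, so high shares can follow from the choice of list and are not a result of these libraries. ISG15, which rose, and BST2, which fell, each hold a pair of overlapping ISRE cores. These lie from 113 to 98 and from 130 to 115 bases before the start. IFIH1, which was not called, also holds an overlapping pair. In BST2, 1 of 2 GAS cores overlaps the ISRE pair. ISG20 holds a single ISRE core, 69 to 60 bases before its start, and PARP14 holds 1, 29 to 20 bases before. The core at chr3:122564332-122564341 lies in the windows of both DTX3L and PARP9, which lie on opposite strands, and neither gene was called. Of the 17 tested members with an ISRE core, 3 were called higher, 1 lower and 13 were not called, with log2 fold changes from -1.01 to 0.87. Of the 7 tested members with a window and no ISRE core, 1 was called, STAT2. Over all tested genes 15.6% were called higher and 16.2% lower, and a link between core and call was not tested. A match is a run of letters and does not show that a factor bound there.

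**Figure D2:**
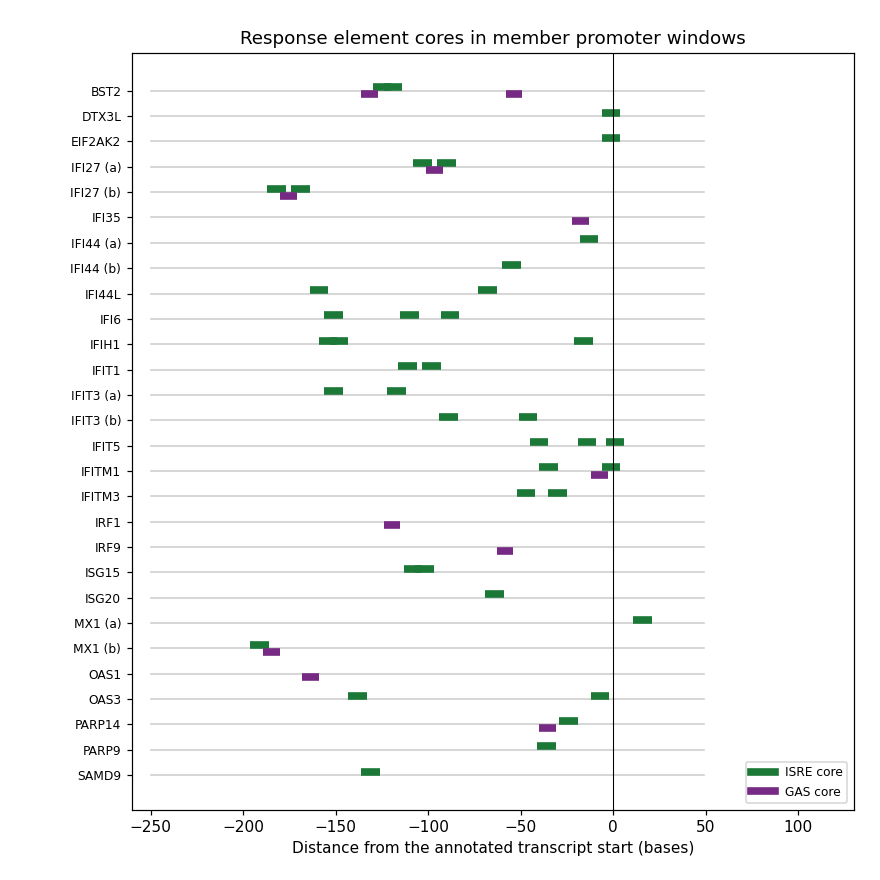
Positions of the ISRE core (green) and the GAS core (purple) in the member promoter windows that hold at least 1 core, as distance in bases from the annotated transcript start; (a) and (b) mark separate annotated starts of a gene. ISG15, BST2 and IFIH1 show overlapping ISRE cores more than 90 bases before the start, and single cores of DTX3L, EIF2AK2, IFIT5 and IFITM1 lie across the start.

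Interferon genes themselves were almost silent in these libraries. Of 22 interferon ligand genes, 19 had 0 counts in every library, which allows at most 0.222 to 0.234 CPM in a library (3 counts, counting error only). IFNB1 and IFNG were among the 19. Counts were seen for IFNE, an epithelial type I interferon, with 5, 1 and 4 counts in shControl and 4, 2 and 2 in shDNM1, and for IFNA21 and IFNL1, with 1 count each in 1 library. No ligand gene could be tested. The IFNA genes are near-identical copies, and reads shared among them could have been left uncounted.

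None of the receptor members passed the test, where 31.9% of all tested genes did. IFNAR1, a chain of the type I interferon receptor (chromosome 21, 33324387 to 33359864), had 99.5 ± 3.17 and 100.1 ± 1.93 CPM (SD, n = 3), and its 95% interval of fold ran from 0.917 to 1.10. The partner chain IFNAR2, on the same chromosome, had 8.75 ± 0.715 and 8.995 ± 0.395 CPM. IFNGR1, the ligand-binding chain for interferon gamma, had 43.2 ± 1.62 and 44.6 ± 0.206 CPM, and its interval ran from 0.926 to 1.15. The values of the groups overlapped for all 3 receptor genes. Receptor genes outside the member list did differ: IFNLR1, the specific chain of the interferon lambda receptor, had 3.68, 3.31 and 2.62 CPM in shControl and 1.17, 0.957 and 0.836 CPM in shDNM1. It was at 30.9% of the control level (log2 fold change -1.69, SE 0.305, adjusted p = 0.000335). IL10RB, the chain shared by the interferon lambda and interleukin-10 receptors, was 1.81-fold higher (adjusted p = 0.00321), so the chains of this receptor were called in opposite directions. IFNGR2, the signalling chain for interferon gamma, was 1.24-fold higher (adjusted p = 0.0125); leaving out shControl 1, shControl 3 and shDNM1 2 in turn ended this call (adjusted p = 0.0521, 0.0834 and 0.0612).

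Neither of the tested sensor members, IFIH1 and DHX58, passed the test, where 31.9% of all tested genes did. IFIH1, which encodes the RNA helicase MDA5, was the most abundant of them, at 18.8, 13.8 and 17.2 CPM in shControl and 17.6, 17.2 and 17.5 CPM in shDNM1. The shDNM1 values lay inside the range of the controls. RIGI, the RNA helicase sensor listed as DDX58, had 13, 20 and 15 counts against 25, 11 and 5, and the groups overlapped (log2 fold change -0.18, SE 0.460, adjusted p = 0.798). DHX58, the regulatory helicase LGP2, had 10 to 17 counts against 14 to 22 (adjusted p = 0.385). CGAS, the cytosolic DNA sensor, had 1 to 3 counts in every library of either set, too few to test.

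Among the 5 transcription factors 1 rose, 1 fell and 3 did not pass (40.0% called, beside 31.9% of all tested genes). IRF7, the factor that amplifies type I interferon transcription (ENSG00000185507, chromosome 11, 612553 to 615983, minus strand), had 17.5, 22.2 and 21.4 CPM in shControl and 34.02, 37.2 and 39.6 CPM in shDNM1. Every library labelled shDNM1 was above every control. The difference was 1.81-fold (log2 fold change 0.86, SE 0.104, 95% interval 0.64 to 1.08, adjusted p = 5.19e-06). STAT2, the signal transducer of the ISRE-binding complex (chromosome 12, 56341597 to 56360203, minus strand), went the other way, from 91.1, 105 and 101 CPM to 80.2, 79.5 and 80.8 CPM. The groups did not overlap, and the shDNM1 libraries were close together. STAT2 was at 81.0% of the control level (log2 fold change -0.30, SE 0.0692, adjusted p = 0.0024). IRF9, the DNA-binding partner of STAT2, had 2.84, 2.65 and 2.78 CPM and then 4.82, 3.75 and 3.35 CPM; the groups did not overlap, but the test was not passed (log2 fold change 0.53, SE 0.232, adjusted p = 0.0937). IRF1, itself induced by interferon gamma, had 23.8, 24.0 and 23.6 CPM against 26.4, 26.9 and 29.0 CPM, also without overlap (adjusted p = 0.0997). IRF3, which acts directly below the sensors, had 74.7 ± 2.64 and 74.7 ± 4.39 CPM, with a 95% interval of fold from 0.903 to 1.11. IRF3 shares 734 bases with BCL2L12 on the other strand and IRF1 overlaps IRF1-AS1, and without known strand such reads cannot be told apart.

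Of the 4 feedback and ADP-ribosylation genes 1 rose and 3 did not pass, where 31.9% of all tested genes were called. PARP14, an ADP-ribosyltransferase, had 68.7, 63.9 and 66.9 CPM in shControl and 80.8, 71.8 and 76.8 CPM in shDNM1. The groups did not overlap, and the difference was 1.15-fold (log2 fold change 0.20, SE 0.0711, adjusted p = 0.0364). Leaving out shControl 1, 2 and 3 in turn ended this call (adjusted p = 0.0582, 0.155 and 0.111), as did leaving out shDNM1 1 and 3 (adjusted p = 0.0764 and 0.0874), and it was lost under 12 of 19 alternatives in all (adjusted p from 0.016 to 1.0). Its neighbours on chromosome 3, PARP9 and DTX3L, which encode partner proteins of a ubiquitin ligase complex, were not called, at 0.959-fold and 1.10-fold. Their annotated spans share 240 bases on opposite strands. USP18, the protease that removes ISG15 from its targets and restrains the type I receptor, had 8.43, 8.69 and 6.71 CPM against 4.89, 5.98 and 6.69 CPM. The highest shDNM1 library was just under the lowest control, and the difference did not pass (log2 fold change -0.44, SE 0.177, adjusted p = 0.0665); without shControl replicate 3 it did (adjusted p = 0.0475).

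**Figure D3:**
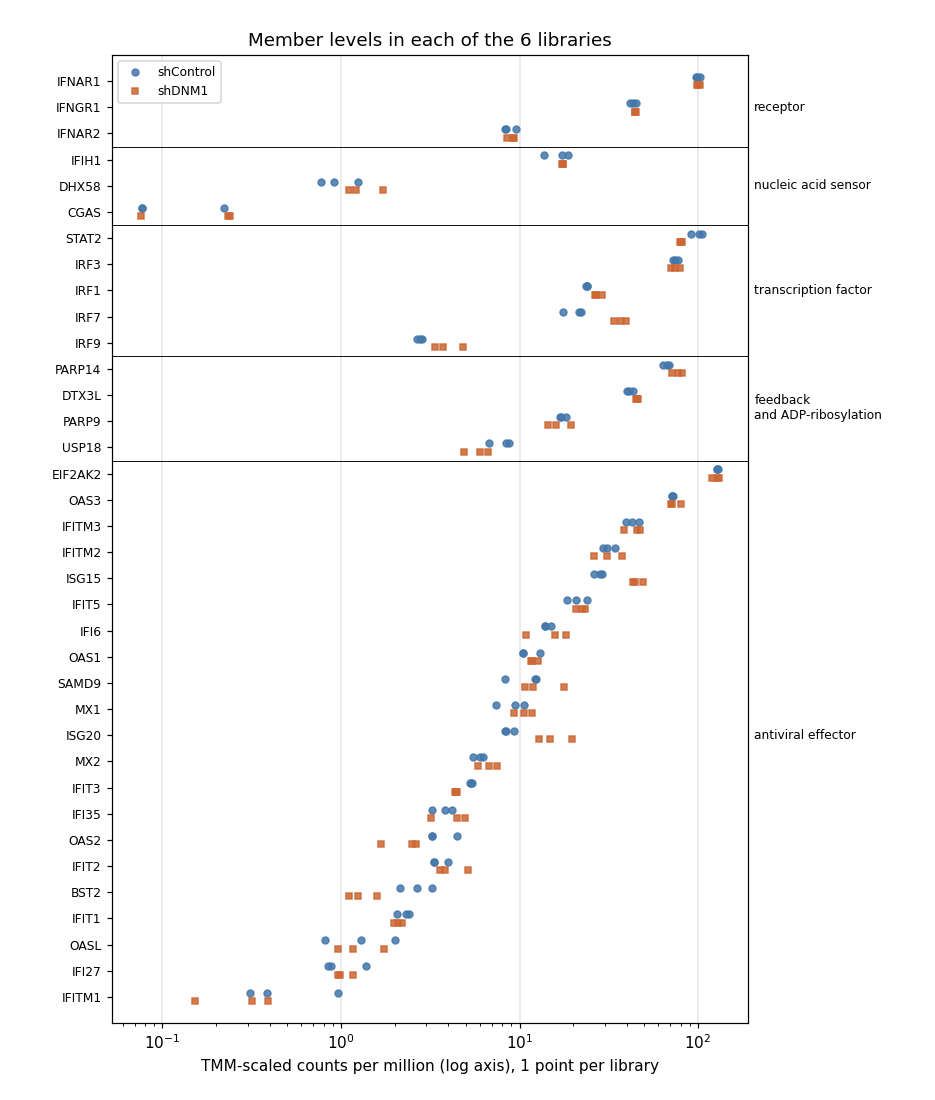
TMM-scaled CPM (log axis) of the 36 members with a count, 1 point per library, circles for shControl and squares for shDNM1, grouped by role and ordered by the shControl mean. IRF7, ISG15 and ISG20 show squares to the right of every circle, as do PARP14, IRF1, IRF9 and DTX3L. BST2 and STAT2 show squares to the left, as do OAS2, IFIT3 and USP18. Of these, IRF1, IRF9, DTX3L, OAS2, IFIT3 and USP18 were not called. The receptor points lie on top of each other.

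Among 23 antiviral effectors 20 were tested, and 2 rose, 1 fell and 17 did not pass. That is 3 of 20 called, where 31.9% of all tested genes were. ISG15, a ubiquitin-like modifier (ENSG00000187608, chromosome 1, 1001138 to 1014540, plus strand), had 28.1, 26.1 and 29.0 CPM in shControl and 42.9, 44.1 and 49.3 CPM in shDNM1. All 3 shDNM1 libraries were above all controls, and the means differed 1.64-fold (log2 fold change 0.71, SE 0.0867, adjusted p = 5.69e-06). ISG20, an RNA exonuclease (ENSG00000172183, chromosome 15, 88635670 to 88656483, plus strand), had 8.36, 9.35 and 8.25 CPM and then 12.9, 14.8 and 19.8 CPM. The groups did not overlap, shDNM1 replicate 3 was the highest, and the difference was 1.83-fold (log2 fold change 0.87, SE 0.157, adjusted p = 0.000335). BST2, also known as tetherin, which holds budding virus particles at the cell surface (ENSG00000130303, chromosome 19, 17402939 to 17405630, minus strand), had 28, 36 and 42 counts against 16, 14 and 21. It was at 49.5% of the control level (log2 fold change -1.01, SE 0.306, adjusted p = 0.0164). The BST2 call ended without shControl replicate 3 (adjusted p = 0.097) and with DESeq2 (adjusted p = 0.0613).

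The OAS genes and EIF2AK2 were present, and none of the 5 was called, where 31.9% of all tested genes were. OAS1, OAS3 and OAS2 lie side by side on chromosome 12 and encode oligoadenylate synthases, which are activated by double-stranded RNA. OAS3, the most abundant, had 71.7 ± 0.935 and 74.2 ± 5.66 CPM (SD, n = 3; 95% interval of fold 0.932 to 1.15), and OAS1 11.3 ± 1.45 and 12.1 ± 0.603 CPM. OAS2 had 4.45, 3.24 and 3.24 CPM against 2.49, 2.63 and 1.67 CPM; the groups did not overlap, and the log2 fold change of -0.69 (SE 0.260) narrowly missed the threshold (adjusted p = 0.0522). It passed under 6 of 19 alternatives, among them the replicate block (adjusted p = 0.038), the robust fit (adjusted p = 0.0469) and leaving out shDNM1 replicate 1 or 2 (adjusted p = 0.0499 and 0.0471). OASL, a family member without synthase activity, had 11 to 26 counts against 12 to 23. EIF2AK2, the RNA-activated kinase PKR, was the most abundant member by CPM, at 128 ± 1.03 and 126 ± 5.45, with a 95% interval of fold from 0.897 to 1.08.

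The IFIT genes, whose products bind viral RNA, form a cluster on chromosome 10. None of the 4 members was called, where 31.9% of all tested genes were. IFIT3 had 5.44, 5.30 and 5.32 CPM against 4.35, 4.38 and 4.49 CPM. The groups did not overlap and each was tight, yet with 69 to 72 counts a library against 55 to 59 the difference did not pass (log2 fold change -0.28, SE 0.182, adjusted p = 0.263). IFIT1, often the most inducible of the family, had 28 to 31 counts in shControl and 25 to 29 in shDNM1. IFIT2 and IFIT5 had 1.18-fold and 1.05-fold values with overlapping groups. IFIT1, IFIT2 and IFIT3 lie within the deposited span of LIPA on the other strand, which had 8588 counts in all, so a part of their low counts cannot be told apart from LIPA reads.

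The IFITM proteins block virus entry at membranes. IFITM3 had 43.0 ± 3.73 and 43.8 ± 4.48 CPM, IFITM2 31.5 ± 2.59 and 31.4 ± 5.60 CPM, and the groups overlapped for both. IFITM1, which lies between them on chromosome 11, had 5, 13 and 4 counts against 5, 4 and 2 and was not tested. These are close paralogs, and the split of reads among them is uncertain. The GTPase genes MX1 (whose span shares 5772 bases with TMPRSS2 on the other strand) and MX2, neighbours on chromosome 21, had 9.10 ± 1.61 and 10.5 ± 1.199 CPM and 5.92 ± 0.364 and 6.68 ± 0.816 CPM, again with overlap. SAMD9, IFI6 and IFI35 overlapped too, at 1.24-fold, 1.05-fold and 1.12-fold (adjusted p = 0.231, 0.756 and 0.618), and IFI27 had 11 to 18 counts against 12 to 15. IFI44 and IFI44L, neighbours on chromosome 1, had 0 counts in all 6 libraries, which allows at most 0.0383 CPM over the 78402759 counts together.

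Per unit of gene length, on the scale of the deposited TPM, the members with a count spanned a wide range. In shControl, IFITM3 led at 125.4 ± 9.18 TPM, above ISG15 at 108 ± 6.61 in every library, and the values of ISG15 overlapped those of IFITM2 at 95.3 ± 7.47 (SD, n = 3). In shDNM1 ISG15 led at 169 ± 14.5 TPM, ahead of IFITM3 at 123 ± 11.2. IRF7 was at 30.2 ± 3.38 and 52.7 ± 3.93 TPM, below STAT2 in shControl (47.1 ± 2.77) and above it in shDNM1 (36.7 ± 1.35). At the low end, IFIT1 was at 1.49 ± 0.125 and 1.33 ± 0.1004 TPM and CGAS at 0.118 ± 0.0774 and 0.167 ± 0.0834. The summed CPM of all 38 members was 922 to 936 in shControl and 947 to 995 in shDNM1. The median absolute deviation of the members from the group mean, on log2(CPM + 0.5), was 0.0595 to 0.0827 per shControl library and 0.0617 to 0.0836 per shDNM1 library, beside 0.0644 to 0.0736 and 0.0813 to 0.108 over all tested genes.

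Genes around the members were counted from lists of signalling partners, sensing partners and further interferon-stimulated genes. Of 15 tested receptor and JAK-STAT partners 5 rose, 1 fell and 9 did not pass, beside the same shares over all tested genes as for the members (15.6% higher, 16.2% lower). STAT3, a signal transducer best known downstream of interleukin-6 receptors, had 78.2, 81.8 and 82.3 CPM against 93.98, 107.5 and 101 CPM, with no overlap. It was higher in shDNM1 (log2 fold change 0.32, SE 0.0691, adjusted p = 0.00158). The kinase TYK2 was 1.14-fold higher (adjusted p = 0.0355). The call ended when shControl 1, 2 or 3 was left out (adjusted p = 0.0998, 0.156 and 0.0584) and when shDNM1 3 was (adjusted p = 0.118). In all, the TYK2 call was lost under 11 of 19 alternatives, among them upper-quartile scaling (adjusted p = 0.0513) and library size alone (adjusted p = 0.0866). JAK1, named after its value was seen, had a 95% interval of log2 fold change from -0.13 to 0.14.

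Of 16 tested sensing partners 3 rose, 4 fell and 9 did not pass, beside 15.6% higher and 16.2% lower over all tested genes. STING1, the adaptor below cGAS, had 11.7, 12.01 and 11.8 CPM in shControl and 5.44, 4.70 and 5.55 CPM in shDNM1. It was at 44.3% of the control level (log2 fold change -1.17, SE 0.150, adjusted p = 9.63e-06), and no values overlapped. MAVS, the adaptor below RIG-I and MDA5, fell from 416 ± 13.9 to 316 ± 8.54 CPM (adjusted p = 4.98e-05), and ADAR, the enzyme that edits double-stranded RNA, to 85.3% of control (adjusted p = 0.0133; 0.0542 without shControl replicate 1). MYD88, the adaptor of Toll-like receptors, was 1.46-fold higher (adjusted p = 3.83e-05). SAMHD1 and the kinase gene IKBKE were 1.15-fold and 1.22-fold higher. The SAMHD1 call ended on leaving out shControl 1, shControl 3, shDNM1 2 and shDNM1 3 in turn (adjusted p = 0.155, 0.148, 0.0836 and 0.0959). For IKBKE, leaving out shControl 2, shControl 3, shDNM1 2 and shDNM1 3 in turn had that effect (adjusted p = 0.0818, 0.141, 0.0826 and 0.0819). The SAMHD1 and IKBKE calls were each lost under 11 of 19 alternatives in all, DESeq2 among them (adjusted p = 0.0509 and 0.0632). The remaining call, ENPP1, named after its value was seen, had 8, 25 and 24 counts against 5, 12 and 2 with overlap (adjusted p = 0.0395). It ended without shControl 2 and 3 in turn (adjusted p = 0.149 and 0.154) and without shDNM1 1 and 3 (adjusted p = 0.0763 and 0.175). With DESeq2 the ENPP1 call was lost too (adjusted p = 0.0972).

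Of 27 tested further interferon-stimulated genes 6 rose, 3 fell and 18 did not pass, a share of 33.3% called beside 31.9% of all tested genes. ZNFX1, an RNA helicase, had 73.0, 71.5 and 67.1 CPM against 104, 118 and 119 CPM, with no overlap. The rise was 1.61-fold (log2 fold change 0.69, SE 0.0712, adjusted p = 8.58e-07). The nuclear body gene SP100 was 1.53-fold, PARP12 1.38-fold, HELZ2 1.37-fold, LGALS3BP 1.27-fold and PML 1.22-fold higher (adjusted p from 8.58e-07 to 0.00635 over the 6). PLSCR1, a phospholipid scramblase, fell from 15.1 ± 2.12 to 9.22 ± 1.91 CPM (adjusted p = 0.00193). CNP and TMEM140, named with PML after their values were seen, were at 86.7% and 77.1% of control. Leaving out shControl 1, 2 and 3 in turn ended the CNP call (adjusted p = 0.124, 0.051 and 0.0541), as did shDNM1 1 and 3 (adjusted p = 0.0501 and 0.0723). The TMEM140 call ended on leaving out shControl 1, shControl 2 and shDNM1 1 in turn (adjusted p = 0.0697, 0.0739 and 0.0752). With DESeq2 the CNP and TMEM140 calls were lost too (adjusted p = 0.0626 and 0.0698). The other 16 of the 43 listed genes were too low to test, and CXCL10, HERC5, CMPK2, GBP4 and IDO1, genes strongly induced in many responding cells, had 0 counts in every library.

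**Figure D4:**
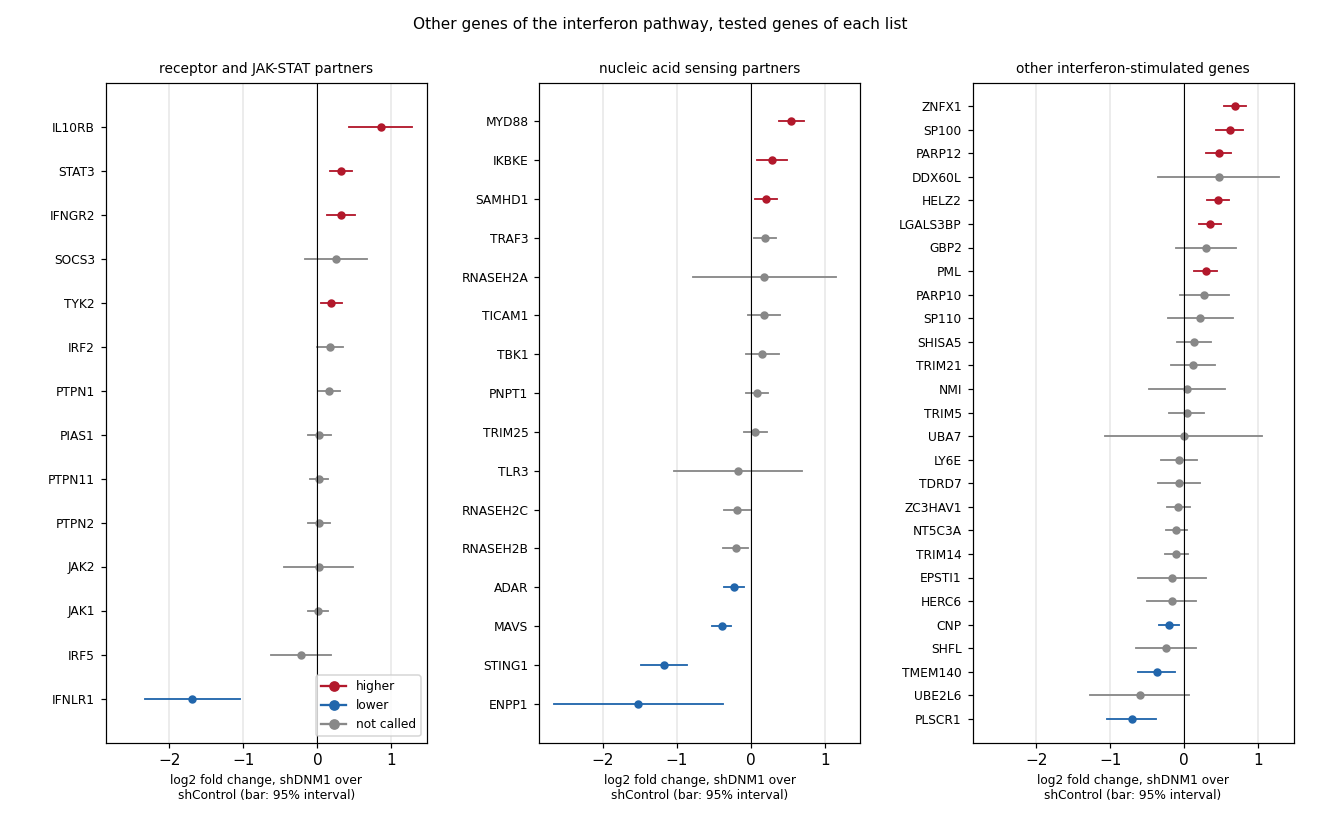
Fitted log2 fold changes, shDNM1 over shControl, with 95% intervals, of tested genes of the lists of receptor and JAK-STAT partners (14 of 15 drawn), nucleic acid sensing partners (16) and other interferon-stimulated genes (27); colours as for the members. STAT3, MYD88 and ZNFX1 lie to the right of 0, and IFNLR1, STING1 and PLSCR1 to the left.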

How the data were processed

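RNA-seq libraries of SW620 cells (3 shControl, 3 shDNM1, grouped by sample title) came from a SMARTER mRNA-seq library kit, per the labels' protocols. The deposited table holds raw counts per gene on GRCh38, per the submitters' processing notes; the sources used here do not give the aligner, counter, annotation or strand use. The authors' deposited TPM were treated as a score, since lines that repeat a gene name raise the column sums; over unique names each sums to 1000000. In each file, 2328 lines shared 453 names with identical values and were collapsed. Per-sample columns left unused numbered 0.

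Counts were tested with edgeR 4.0.16 in R 4.3.3 (filterByExpr, TMM, two-sided quasi-likelihood F test), with Benjamini-Hochberg adjustment over 16744 genes at 0.05; CPM are TMM-scaled. The precision at this depth is given by each standard error. The code was tested on simulated data. Alternatives used DESeq2 1.42.0, limma 3.58.1, other scalings, filters and thresholds, a replicate block and leaving out each library. Deviations of same-numbered libraries from their group means correlated weakly, at 0.102, 0.0634 and -0.033. Those of unlike numbers ran from -0.0979 to 0.0334, so a weak pairing can be neither shown nor excluded.

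The rule for named genes took all members, up to 6 tested genes with the smallest p in each list of partners, and ligands with a count; exceptions are marked in the text. Counts cover whole lists, and some list genes are not reported here. The members and lists were chosen with earlier results of these data known. Promoter motifs were searched in the RefSeq table. Figures used matplotlib 3.10.9.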

Additional observations from a re-analysis of the deposited data

How the results depend on the processing

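Each result was recomputed under 19 alternatives. ISG15, ISG20, IRF7 and STAT2 passed under 18 of them and missed only the test against a 1.5-fold change (adjusted p = 0.361, 0.215, 1.0 and 0.0525 for ISG15, ISG20, STAT2 and IRF7). In that test 0 members were called higher and 0 lower, and 591 genes in all; among partners, 0 receptor and JAK-STAT genes and 0 sensing genes were higher, and 1 receptor gene (IFNLR1) and 1 sensing gene (STING1) lower, and 0 further interferon-stimulated genes were called either way. At an adjusted p of 0.01 the lower count of members was 1, and 3503 genes were called in all; 3 receptor and JAK-STAT partners and 1 sensing partner were higher, 2 sensing partners and 1 further interferon-stimulated gene lower. With DESeq2, 4389 genes (24.27%) were called in all, 1 member and 1 further interferon-stimulated gene were lower and 1 sensing partner was higher. The last count was also 1 with library size alone, with no low-count filter and on both TPM scales. The median log2 fold change of the tested members turned to -0.0106 with log2(TPM + 1) and -0.0109 with log2(TPM + 0.1). Over all tested genes these medians were -0.0667 and -0.075.

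Leaving out 1 library at a time gave 3 to 4 members higher and 2 to 3 lower, 3 to 5 receptor and JAK-STAT partners higher, 1 to 4 sensing partners higher, 1 to 3 further interferon-stimulated genes lower, and a DNM1 log2 fold change of -0.205 to -0.037. The genes called in all moved too, from 3990 (23.05%) without shControl replicate 3 to 5890 (34.03%) without shDNM1 replicate 1. The sensing count fell to 1 without shControl replicate 3 or shDNM1 replicate 2, and the receptor count to 3 without shControl replicate 1 or 3. The count of lower further genes fell to 1 without shControl replicate 2 or shDNM1 replicate 1. The cause of these changes was not tested.

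The replicate block changed no member call except that of OAS2, which passed (adjusted p = 0.038), and 6080 genes were then called in all. Whether same-numbered libraries share anything beyond a number was not settled by these values.

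Signs turned only for members whose difference did not pass in either setting. Log2 fold changes became -0.011 and -0.012 for OAS3, -0.015 and -0.015 for IFI6, -0.022 and -0.028 for IFI27, -0.033 and -0.033 for IFITM3, -0.048 and -0.049 for IFNAR1, -0.013 and -0.016 for IFNAR2 and -0.010 and -0.010 for IFNGR1 on the log2(TPM + 1) and log2(TPM + 0.1) scales. They were -0.015 for IFI27 and -0.0069 for IFNAR1 with upper-quartile scaling, -0.034 for IFI27, -0.010 for IFITM3 and -0.027 for IFNAR1 with library size alone, and -0.0045 for IFI27 with no filter. IFITM2 and IRF3 became 0.012 and 0.014 with RLE scaling, 0.0093 and 0.012 with a CPM of at least 1 in 3 libraries, and 0.014 and 0.016 with DESeq2. Without 1 library the ranges were -0.015 to 0.087 for OAS3, -0.36 to 0.29 for OASL, -0.019 to 0.18 for IFIT5, -0.090 to 0.26 for IFI6, -0.12 to 0.25 for IFI27, -0.14 to 0.11 for IFITM2, -0.028 to 0.11 for IFITM3, -0.043 to 0.044 for IRF3, -0.049 to 0.18 for IFIH1, -0.055 to 0.0089 for EIF2AK2, -0.18 to 0.034 for PARP9 and -0.014 to 0.033 for IFNAR1. Of the 28 members not called, 11 have an interval reaching past 1.5-fold.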
